A study of Drosophila melanogaster with 382 samples.

Results

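The comparison set the middle of the wild-type Drosophila melanogaster embryo against its ends during nuclear cycle 14, when the blastoderm cellularizes and the segmentation genes take up their patterns. The libraries were 61 slices of 5 Canton-S embryos, out of 382 slices of 25 embryos in the series, and 48 of the 61 had FPKM values (fragments per kilobase of transcript, scaled to the mapped fragments of the library), out of 338 in the series. The slice positions of each embryo were divided into 3 equal parts, the middle, the first and the last, and a slice belonged to the part in which its centre lay. The mean FPKM of the middle was set against the mean of the 2 end parts within the same embryo, so that the embryo was the unit and n = 5. The 5 embryos were 1 each of the consecutive stages 14A, 14B, 14C, 14D and 14E, so a stage had no replicate embryo, and stage and embryo cannot be told apart.

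The study cut single methanol-fixed embryos into transverse slices from one pole to the other and sequenced the RNA of each slice, in wild type and in lines with altered bicoid, hunchback or zelda. The wild-type embryos were laid and aged at 25 °C and their RNA was extracted with TRIzol, with yeast RNA added as carrier. The carrier was S. cerevisiae at 14A, 14C and 14D and T. delbruckii at 14B, while the 14E embryo had T. delbruckii in all slices except 12 and 13, which had S. cerevisiae. Embryos outside the comparison, which are described near the end with no test, were RNAi-depleted for bicoid or hunchback with a maternal driver, carried bicoid at 2.4 times the usual amount as a tagged fusion, came from zelda- germline clones, or were Canton-S at cycles 11 and 13.

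The long axis of the fly blastoderm is laid out by maternal RNAs and proteins placed at its poles, bicoid in front and nanos behind, together with a receptor tyrosine kinase pathway that acts at both termini. Gap genes read these cues in broad domains, Krüppel in the centre and tailless and huckebein at the termini, and pair-rule genes turn the domains into stripes along the trunk. The pole cells, which carry germ plasm RNAs, lie at the posterior tip.

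The labels did not say which pole slice 1 was. The maternal anterior determinant bcd had its highest slice in the first part and the germ plasm RNA nos in the last part in all 5 embryos, so the first part is called the anterior end and the last the posterior end. FPKM were present for 3 or 4 slices of the middle in each embryo, but for 1 to 5 slices of the anterior end and 2 to 4 of the posterior end. At 14B the anterior end was 1 slice, slice 4 of 13, and it did not include the tip. FPKM were also absent for the posterior tip at 14A, slice 11 of 11, and for the anterior tip at 14E, slice 1 of 13. The depth estimated from the FPKM steps of low genes was 248930 to 4109967 fragments per slice, with embryo medians between 365465 (14B) and 1312862 (14C). At the median slice, a transcript of 1500 bases at 5 FPKM rested on about 5.99 fragments, a counting error of 40.9%, and at 50 FPKM on 59.9 fragments, an error of 12.9%. The cellularization genes Sry-alpha, bnk, slam and halo were at 91.0 FPKM or more in every part of every embryo, while nullo was at 6.02 FPKM in the middle, 33.7 FPKM in the anterior and 10.7 FPKM in the posterior end at 14E. In these bulk slices fewer cells of a kind and less RNA per cell cannot be told apart.

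Of 5994 genes with a mean of at least 1 FPKM, 14 were higher in the middle than in the mean of the 2 ends (0.234% of the genes tested) and 49 were lower (0.817%), at an adjusted p under 0.05 in limma. A gene called against this mean need not differ from each end: at 14E, for instance, D held 178 FPKM in the middle, against 222 FPKM in the posterior end. The gap gene Kr led the genes that were higher, with the pair-rule genes odd, eve and run, the Sox gene D and the signalling ligand gene os. The terminal gap genes tll and hkb, head genes such as oc, hbn and fd19B, and the germ plasm RNAs pgc and nos were among those lower. The median difference was 1.04 on the log2(FPKM + 1) scale over the genes that were higher, -1.51 over those that were lower, and 0.01 over all genes tested. At an unadjusted p under 0.05 there were 190 higher and 402 lower. These counts leaned on single embryos: without 14B there were 3 higher and 37 lower, without 14C 1 higher and 17 lower, without 14D 4 higher and 36 lower, without 14A 18 higher and 71 lower, and without 14E 13 higher and 53 lower. CG15479 alone among the 14 and 17 of the 49 were called in each of those 5 fits, and 3 of the 14 and 20 of the 49 were called in at least 15 of all 20 alternatives. Within the S. cerevisiae embryos (14A, 14C and 14D) 11 genes were higher and 58 lower, and within the T. delbruckii embryos (14B and 14E) 29 were higher and 128 lower.

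Kr, which encodes the zinc-finger repressor of the central gap domain, had the largest positive difference. It stood at 93.7, 399, 268, 164 and 121 FPKM in the middle at 14A, 14B, 14C, 14D and 14E, against 5.29, 3.36, 5.80, 6.43 and 42.6 FPKM in the ends. The middle values lay above all the end values, and the 14E ends stood apart, with 83.6 FPKM in the anterior and 1.5 FPKM in the posterior end there. The highest slice was at 50% of the slice positions at 14A, 57.7% at 14B, 55% at 14C, 60.7% at 14D and 42.3% at 14E, in the middle each time. The log2 difference was 3.91, 6.52, 5.31, 4.47 and 1.48 in the 5 embryos, with a mean of 4.34 ± 0.52 (limma SE, adjusted p = 0.00256). Without 14C the difference of Kr was 4.10, with an adjusted p of 0.0517. Kr was also higher in the middle than in the anterior end (4.66 ± 0.90, limma adjusted p = 0.0438) and than in the posterior end (5.05 ± 0.21, limma adjusted p = 1.79e-06).

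CG15479, an uncharacterized gene at 2L:13233798-13234660 (release 6 assembly), was the other gene that was higher in the middle than in each end. Its middle held 117, 299, 196, 101 and 168 FPKM from 14A to 14E, against 69.5, 93.5, 85.5, 29.2 and 47.5 FPKM in the ends. The 2 sets of values did not overlap, with the lowest middle value, 101, above the highest end value, 93.5. The difference was 1.43 ± 0.15 (limma adjusted p = 0.00126), 2.18 ± 0.23 against the anterior end (adjusted p = 0.00209) and 1 ± 0.17 against the posterior end (adjusted p = 0.0473).

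**Figure D1:**
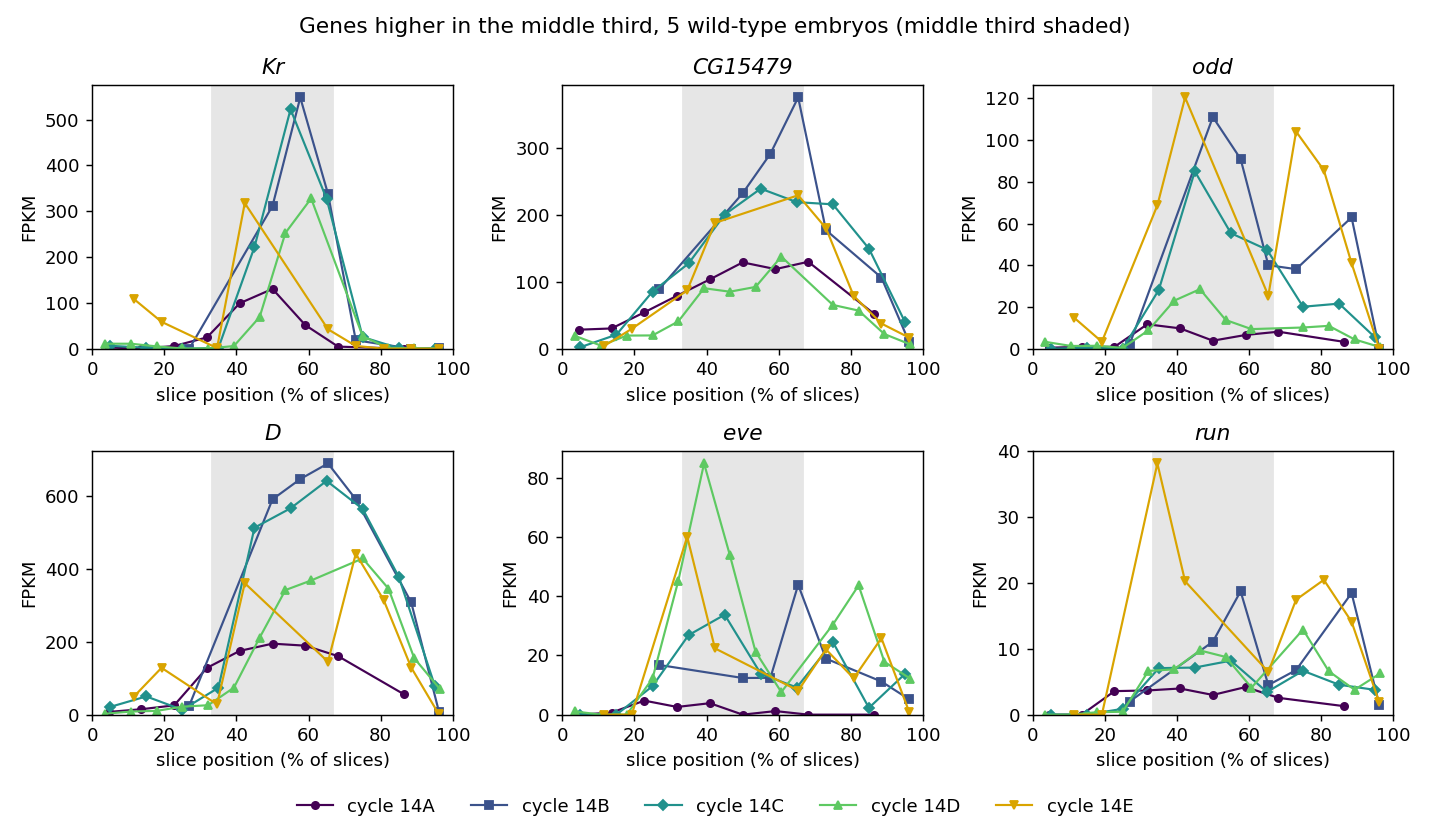
FPKM of 6 genes that were higher in the middle, by slice position in percent of the slices of the embryo (x axis, slice 1 at the left), with a line per embryo and the middle shaded. Kr has its highest slice inside the shaded middle in each embryo, plus an anterior mean of 83.6 FPKM at 14E, whereas D and CG15479 run on into the posterior end and odd, eve and run have a further rise there.

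The pair-rule genes odd, eve and run, which encode a zinc-finger, a homeodomain and a Runt-domain protein, were higher in the middle. odd (2L:3604224-3606756) held 6.72, 80.7, 54, 18.7 and 71.5 FPKM in the middle from 14A to 14E, against 4.60, 17.9, 7.91, 4.80 and 33.4 FPKM in the ends. Each embryo had the higher value in the middle, although the 14A middle lay below several end values of later embryos. Its difference of 1.61 ± 0.26 (limma adjusted p = 0.0166) was 3.26 against the anterior end (adjusted p = 0.0306) and 0.97 against the posterior end (adjusted p = 0.122). eve held 1.69, 22.9, 20.9, 41.9 and 30.2 FPKM in the middle, against 1, 14.3, 8.38, 18.9 and 7.65 FPKM in the ends, a difference of 1.05 ± 0.20 (limma adjusted p = 0.0342). run held 3.72, 11.4, 6.46, 7.37 and 21.6 FPKM, against 1.86, 5.45, 2.64, 4.44 and 6.74 FPKM, a difference of 0.97 ± 0.18 (limma adjusted p = 0.0333). All 3 genes were higher in the middle in 5 of 5 embryos. Of the 63 called genes 62 had 1 sign in all 5 embryos, as had 632 of the 5994 genes tested. The call was lost for odd without 14B (adjusted p = 0.085 in limma) or 14C (0.119), and for eve and run without any of 14B, 14C, 14D or 14E (adjusted p between 0.0515 and 0.238).

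D (Dichaete), a SoxB transcription factor gene at 3L:14175610-14178620 that is needed for segmentation, held 186, 642, 448, 249 and 178 FPKM in the middle from 14A to 14E. Its ends held 76.2, 163, 184, 132 and 155 FPKM. The middle was higher in each embryo, by 1.28, 1.97, 1.28, 0.91 and 0.20 on the log2 scale, and the mean was 1.13 ± 0.19 (limma adjusted p = 0.0199). The difference lay towards the anterior: 3.14 ± 0.46 against the anterior end (limma adjusted p = 0.0124) and 0.39 ± 0.18 against the posterior end (adjusted p = 0.407). Without 14C the adjusted p for D was 0.189, with the difference at 1.09.

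The ligand of the JAK-STAT receptor, upd1, is named os in the table (X:18305354-18309291). It held 4.80, 38.2, 24.8, 24.1 and 28.5 FPKM in the middle, against 2.63, 21.2, 13.8, 17.2 and 19.5 FPKM in the ends. The difference, 0.66 ± 0.13 (limma adjusted p = 0.0418), was positive in 5 of 5 embryos. Against the anterior end it was 1.32 ± 0.20 (adjusted p = 0.0145) and against the posterior end 0.23 ± 0.15 (adjusted p = 0.533), and the highest slice of os lay in the posterior end in 4 of 5 embryos, at 73.1% to 88.5% of the slice positions, and in the middle at 14A. The call held in limma only in the leave-one-out fit without 14E (adjusted p = 0.0464), while without 14A, 14B, 14C or 14D the adjusted p was between 0.0848 and 0.221. Of the 5 JAK-STAT genes tested, out of 7 listed, os was higher and 4 were not called, with a list median of 0.32, beside 0.234% higher and a median of 0.01 over all genes tested. The receptor gene dome had a difference of 0.32 ± 0.18 (adjusted p = 0.586) and the target and inhibitor Socs36E one of 0.42 ± 0.16 (adjusted p = 0.419).

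The 7 remaining genes of the 14 were higher by 0.75 to 1.12 on the log2 scale. rpr (reaper), an inhibitor of the apoptosis inhibitors, held 59.6, 52.5, 33, 34.3 and 45.2 FPKM in the middle, against 39.9, 34.5, 21, 14.2 and 14.5 FPKM in the ends, a difference of 0.92 ± 0.16 (limma adjusted p = 0.0235). Corp, the companion of reaper gene, held 105, 257, 306, 50.6 and 38.1 FPKM, against 104, 85.1, 127, 18.3 and 14.8 FPKM, a difference of 1.12 ± 0.19 (adjusted p = 0.0208) that was only 0.02 at 14A. Traf4, a TRAF adaptor gene, was higher by 0.83 ± 0.16 (adjusted p = 0.0342). The uncharacterized genes CG4702, CG1324, CG43659 and CG18269 were higher by 1.10, 1.04, 0.83 and 0.75. For these 7 genes the difference against the anterior end was between 1.12 and 4.26 and that against the posterior end between 0.25 and 0.74. Each of these calls was lost in limma in 3 or 4 of the 5 leave-one-out fits, always among them those without 14B and without 14C.

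**Figure D2:**
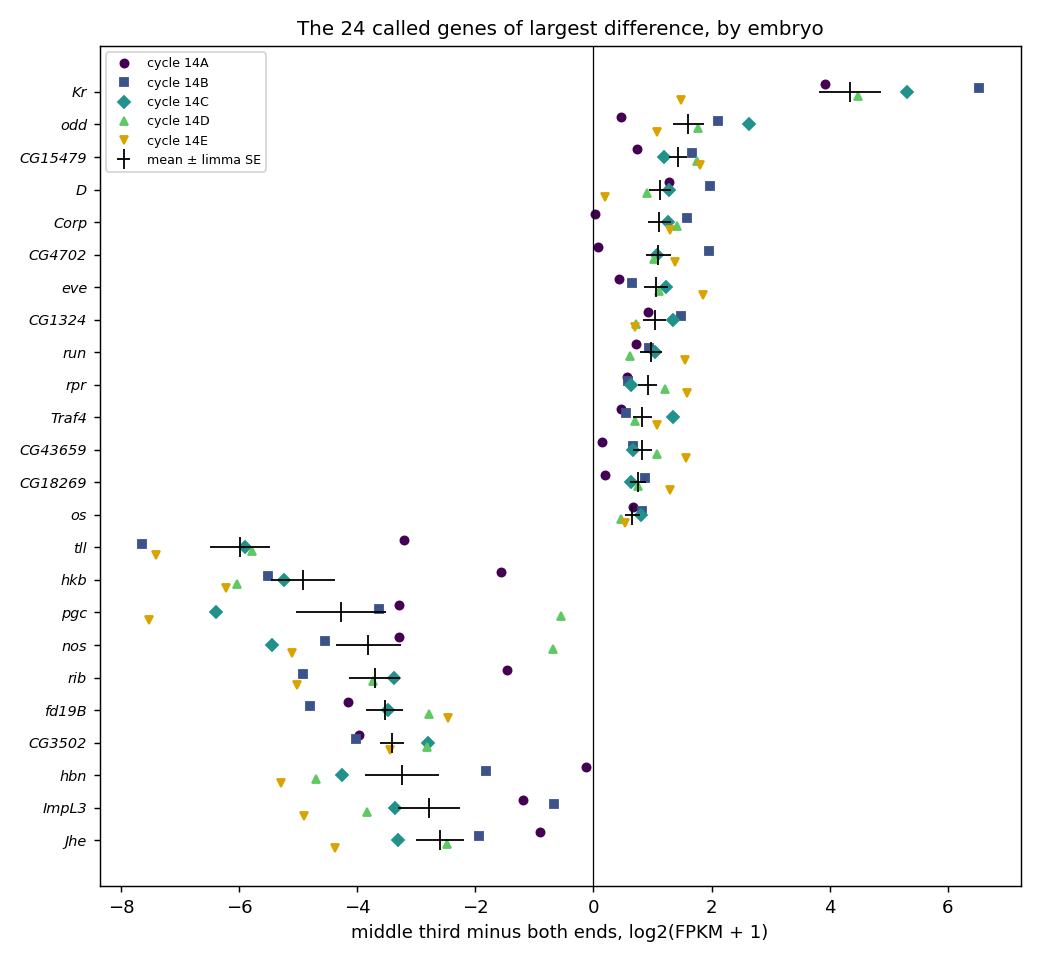
Difference of middle minus both ends in log2(FPKM + 1) (x axis) for the 14 genes that were higher and the 10 of largest negative difference among genes with 1 sign in all 5 embryos, with a coloured mark per embryo and a black tick and bar for the mean and its limma SE (n = 5 embryos). CG12986, with a mean of -3.47, is not shown because it was listed at 0 FPKM throughout the 14A embryo; Kr is nearest to 0 at 14E (1.48), tll and hkb at 14A (-3.21 and -1.56), and pgc and nos at 14D (-0.55 and -0.68).

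The terminal gap genes had the largest negative differences. tll, an orphan nuclear receptor gene at 3R:30852315-30854400, was listed at 0, 0, 0.66, 0.81 and 0 FPKM in the middle from 14A to 14E, against 8.24, 200, 97.9, 98.2 and 169 FPKM in the ends. The middle lay below the ends in each embryo with no overlap, and the posterior end was above the anterior in all 5 embryos, for instance 334 against 66.4 FPKM at 14B. Its difference was -5.99 ± 0.51 (limma adjusted p = 0.000568), a size that depends on the 1 FPKM added because several middle values were listed at 0. tll was the one gene lower in the middle than in each end (0.0167% of the genes tested), with -5.25 against the anterior end (limma adjusted p = 0.00103) and -6.44 against the posterior end (adjusted p = 0.00115). hkb, a zinc-finger gene at 3R:4345015-4346646, was listed at 0, 0.54, 1.48, 0.54 and 0.88 FPKM in the middle, against 1.96, 69.3, 92.3, 100.5 and 138 FPKM in the ends. Its 14A ends, without the posterior tip slice, were low and just above the highest middle value. The difference was -4.91 ± 0.55 (limma adjusted p = 0.002). At 14B the anterior end of hkb, which was the 4th slice, held 1.59 FPKM, against 117, 173 and 131 FPKM at 14C, 14D and 14E, and the difference against the anterior end alone was -4.06 ± 0.88 (adjusted p = 0.0688).

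byn and fkh, hindgut and foregut transcription factor genes on the same list, had differences of -2.29 ± 0.49 (limma adjusted p = 0.0614) and -2.17 ± 0.54 (adjusted p = 0.122). Of the 4 terminal genes 2 were lower, beside 0.817% of all genes tested, and the list median was -3.60. byn held at most 0.58 FPKM in the middle, against 1.21, 15.6, 5.53, 5.71 and 62 FPKM in the posterior end from 14A to 14E and at most 0.30 FPKM in the anterior end.

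**Figure D3:**
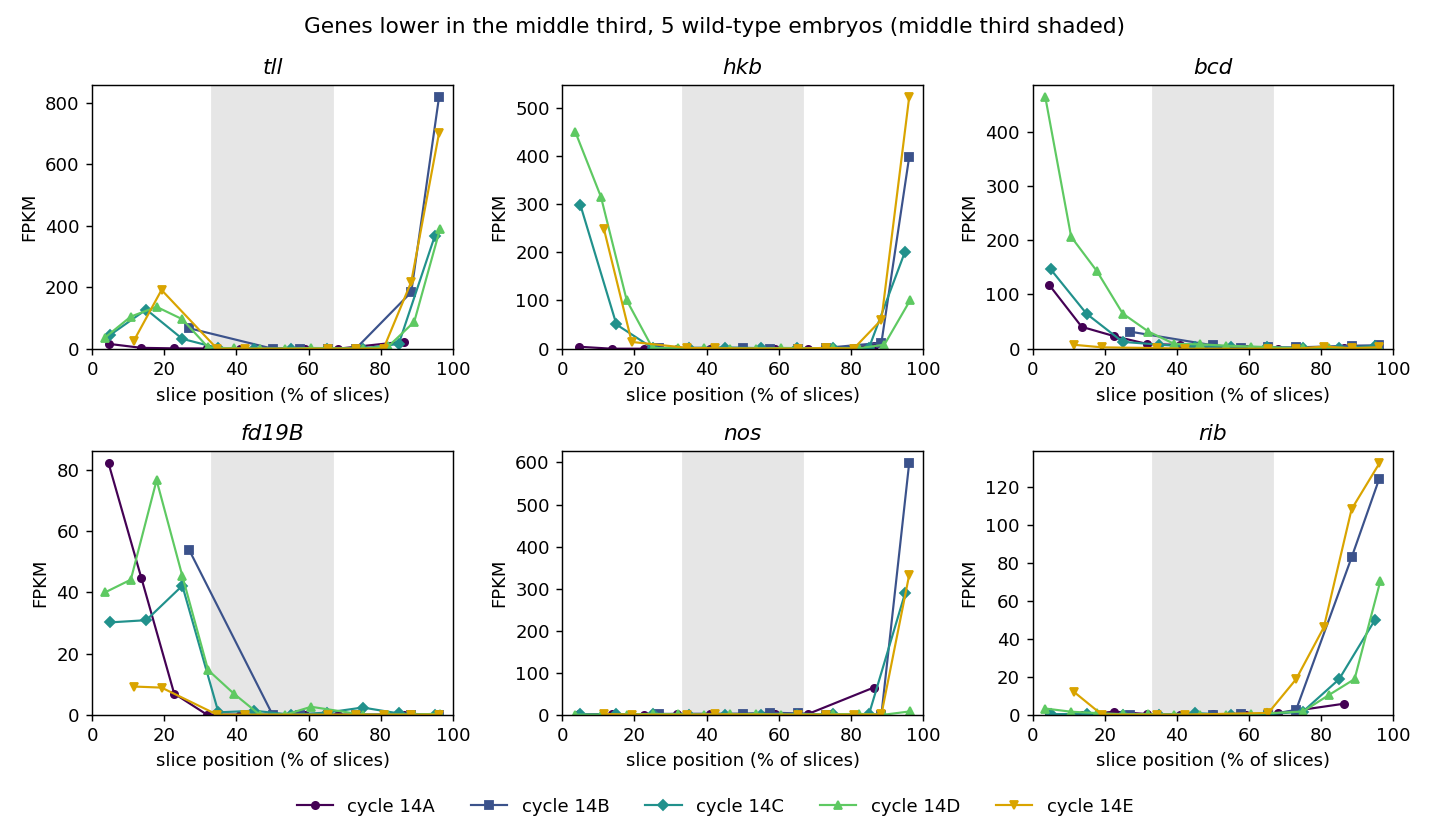
FPKM of 6 genes that were lower in the middle, by slice position in percent of the slices of the embryo (x axis, slice 1 at the left), with a line per embryo and the middle shaded. tll and hkb have signal at both poles, bcd and fd19B in the anterior end and nos and rib in the posterior end; the 14D embryo has 2.60 FPKM of nos in the posterior end, where the others have 33.2 to 199.

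The genes that were lower in the middle divided their end signal between the poles in different ways. Of the 49, 16 had over 90% of it in the anterior end and 6 over 90% in the posterior end, while 27 lay between. In the fits against each end alone, 49 genes were lower in the middle than in the anterior end (0.817%) and 28 were higher (0.467%), while 19 were lower than in the posterior end (0.317%) and 8 were higher (0.133%). These fits share the middle slices. Among the 49 genes lower than the mean of the ends, 31 passed the test against the anterior end only, 13 against the posterior end only, tll against both, ImpL1 in opposite directions and CG12986, emc and nullo against neither. A test that was not passed does not show that signal was absent from that end. Of the 14 that were higher, 2 passed against both ends (0.0334% of the genes tested), 9 against the anterior end only and 3 against neither. Without 14B, 14C or 14D no gene was higher than each end in limma, though 25, 24 and 34 were at unadjusted p values under 0.05, and without 14E there was 1. Lower than each end were 4 genes without 14A and 2 without 14B. With slices 12 and 13 of the 14E embryo left out, whose carrier differed, no gene was lower than each end in limma (39 at unadjusted p values under 0.05).

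**Figure D4:**
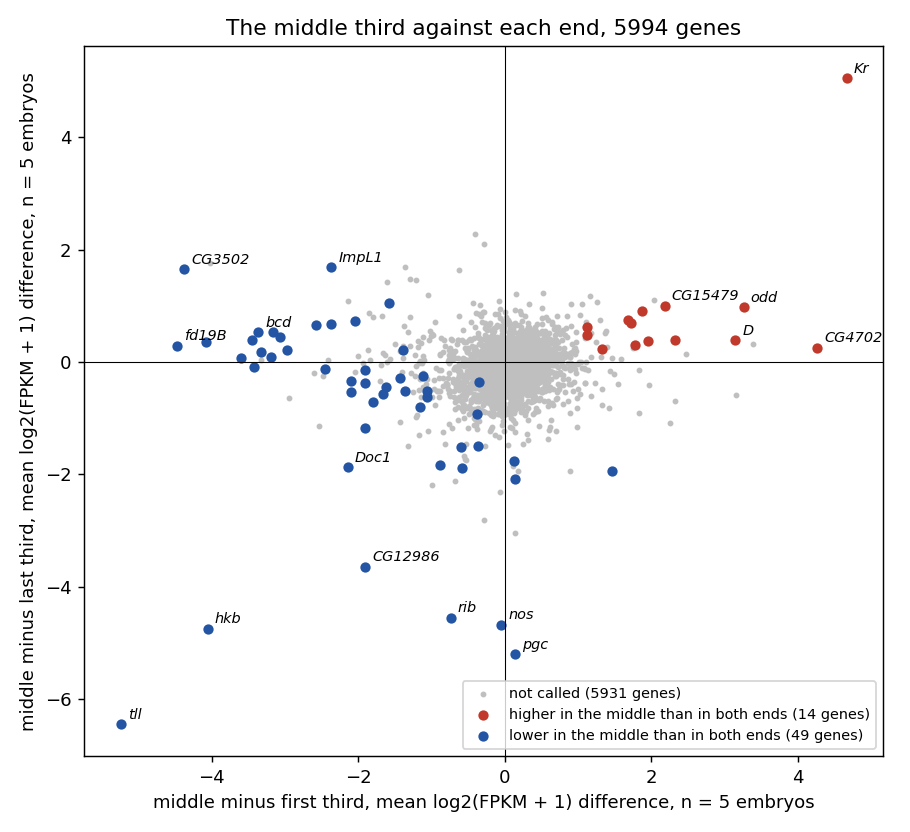
Mean log2(FPKM + 1) difference of the middle minus the anterior end (x axis, first) and minus the posterior end (y axis, last) for each of the 5994 genes tested (n = 5 embryos), with the 14 genes called higher in red and the 49 called lower in blue. Kr is alone at the upper right and tll and hkb are at the lower left, while CG3502, fd19B and bcd lie at the left with y values of 0.29 to 1.64 and pgc, nos and rib lie at the bottom with x values of -0.74 to 0.13.

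On the anterior side, bcd (3R:6755842-6759466), the maternal homeodomain gene whose RNA is anchored at the front, held 3.14, 3.67, 4.28, 6.62 and 0.37 FPKM in the middle, against 24.3, 18.1, 38.4, 91.1 and 3.37 FPKM in the ends. The anterior end held 47.5, 31.5, 74.4, 182 and 4.83 FPKM, lowest at 14E, where the tip slice had no FPKM. Its difference of -2.56 ± 0.25 (limma adjusted p = 0.00122) was -3.37 against the anterior end (adjusted p = 0.00103) and 0.53 against the posterior end (adjusted p = 0.61). The ends were named by bcd and nos, so the end at which each of these RNAs was high was fixed by that choice. fd19B, a forkhead-domain gene at X:20091428-20092408, was listed at 0, 0, 0.67, 2.36 and 0 FPKM in the middle, against 33.5, 53.9, 34.4, 44.2 and 9.03 FPKM in the anterior end and at most 0.91 FPKM in the posterior end, a difference from both ends of -3.54 ± 0.31 (adjusted p = 0.000568). CG3502, an uncharacterized gene with the smallest adjusted p, held 0.12, 0.28, 7.13, 7.17 and 16.7 FPKM in the middle, against 32.1, 39.2, 112, 113 and 382 FPKM in the anterior end and at most 0.85 FPKM in the posterior end. Its difference from both ends was -3.41 ± 0.21 (limma adjusted p = 4.2e-05), and bcd, fd19B and CG3502 were called in each leave-one-out fit.

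oc (orthodenticle, X:8630159-8650681), the homeodomain gene of the head, held 0, 0.26, 0.32, 0.28 and 0.85 FPKM in the middle, against 1.57, 5.05, 11.2, 5.21 and 17.5 FPKM in the ends. Its groups did not overlap, and the difference was -2.49 ± 0.28 (limma adjusted p = 0.002). hbn, a homeobox gene of the anterior brain primordium, held at most 1 FPKM in the middle, against 1.01, 8.17, 74.8, 56.4 and 76 FPKM in the anterior end from 14A to 14E and at most 0.13 FPKM in the posterior end. Its difference of -3.24 ± 0.62 (limma adjusted p = 0.0342) was -0.12 at 14A and -5.29 at 14E, and the call was lost without any of 14B, 14C, 14D or 14E (adjusted p between 0.0662 and 0.294). ImpL3, which encodes lactate dehydrogenase, held at most 0.83 FPKM in the middle, against 2.69, 3.67, 24, 49.2 and 57.5 FPKM in the anterior end, a difference of -2.79 ± 0.52 (adjusted p = 0.0324). Jhe, the juvenile hormone esterase gene, had a difference of -2.60 ± 0.40 (adjusted p = 0.0121). SoxN, a SoxB gene like D, was lower in the middle by 1.30 on the log2 scale (-1.30 ± 0.20, adjusted p = 0.0113), with 0, 0.85, 0.77, 0.54 and 5.56 FPKM there, against 1.05, 7.92, 7.03, 5.41 and 25.6 FPKM in the anterior end. noc, a zinc-finger gene, had a difference of -1.58 ± 0.30 (adjusted p = 0.0326). The calls of ImpL3, Jhe, SoxN and noc were lost in limma without 14C (adjusted p = 0.259, 0.151, 0.117 and 0.233), those of ImpL3, SoxN and noc also without 14D (0.0766, 0.0516 and 0.0718) and that of noc without 14E (0.0614).

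ImpL1 ran in steps along the axis. It held 4.79, 1.65, 7.16, 5.66 and 2.86 FPKM in the middle from 14A to 14E, against 28.8, 21.9, 32.4, 29.1 and 16.3 FPKM in the anterior end and 1.68, 0, 1.38, 0.33 and 0.10 FPKM in the posterior end. The middle was lower than the anterior end by 2.37 on the log2 scale (-2.37 ± 0.20, limma adjusted p = 0.00063) and higher than the posterior end by 1.68 (± 0.22, limma adjusted p = 0.0135). It was the only gene of the 63 that passed both tests in opposite directions.

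On the posterior side, nos (3R:19157238-19160202), whose protein represses translation at the rear, held 0.83, 3.37, 0.14, 0.60 and 0.24 FPKM in the middle, against 33.2, 199, 96.4, 2.60 and 83.1 FPKM in the posterior end. pgc, whose small protein blocks transcription in the pole cells, held 23, 25.2, 5.67, 6.08 and 0 FPKM in the middle, against 447, 632, 1106, 16.9 and 364 FPKM in the posterior end. The 14D embryo was far below the others in the posterior end for both genes, although its last slice was present. The differences from both ends were -3.81 ± 0.55 for nos (limma adjusted p = 0.00811) and -4.28 ± 0.76 for pgc (adjusted p = 0.0245). Without 14D they were -4.60 (adjusted p = 4.37e-05) and -5.21 (adjusted p = 0.00161), and without 14C the adjusted p was 0.108 for nos and 0.233 for pgc, which was also lost without 14B (0.085). Of the 8 pole cell and germ plasm RNAs tested, out of 9 listed, 3 were lower, beside 0.817% of all genes tested, and the list median was -0.42. The other of the 3 that were lower, Hsp83, which encodes the HSP90 chaperone, held 15.8, 15.1, 20.7, 19.2 and 20.8 FPKM in the middle, against 20.6, 49.2, 62.6, 76.5 and 252 FPKM in the anterior end (-1.80 ± 0.35, limma adjusted p = 0.0445). The posterior end held 22.2, 58.2, 20.3, 14.8 and 65.3 FPKM, below the middle at 14C and 14D. Against that end the difference of Hsp83 was -0.71 ± 0.31 (limma adjusted p = 0.385), so its call rested mainly on the anterior end. Its difference from both ends was -1.44 ± 0.28 (adjusted p = 0.0342), a call lost without 14B, 14C or 14D (0.152, 0.18 and 0.0579). osk, gcl, vas, aub and CycB were not called, with differences between -0.55 and 0.10.

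rib, which encodes a BTB-domain transcription factor, held 0.04, 0.19, 0.23, 0.07 and 0.30 FPKM in the middle from 14A to 14E, against 3.26, 70, 23.5, 25.3 and 76.5 FPKM in the posterior end and at most 5.97 FPKM in the anterior end. Its difference from both ends was -3.70 ± 0.43 (limma adjusted p = 0.00211), and it was called in each leave-one-out fit. The 14D embryo, which was low for nos and pgc, was not low for rib.

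Of 5 trunk gap genes, Kr was higher and kni, knrl, gt and hb were not called, with a list median of -0.85. Over all genes tested 0.234% were higher and 0.817% lower. At an unadjusted p under 0.05 in limma, gt and knrl were lower. gt, a bZIP repressor gene with an anterior and a posterior domain, lay on different sides at different stages, with 1.68, 9.89, 49.1, 49.0 and 159.8 FPKM in the middle from 14A to 14E, against 28.5, 146, 58.2, 75.2 and 66.5 FPKM in the ends. Its difference was -3.46 at 14A and 1.25 at 14E, and the mean over the 5 embryos was -1.36 ± 0.60 (limma adjusted p = 0.492). kni, a nuclear receptor gene, was at 0.15 and 0.69 at 14A and 14B but at -4.17 at 14D, where the middle held 5.49 FPKM, against 109.6 in the anterior and 122 in the posterior end. hb had -1.95 and -1.07 at 14A and 14B and 0.38, 0.22 and 0.31 afterwards. With 1 embryo per stage, and 1 slice in the anterior end at 14B, these differences between stages were not tested.

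Of 10 pair-rule genes tested, out of 11 listed, odd, eve and run were higher, none was lower and 7 were not called, beside 0.234% higher and 0.817% lower over all genes tested, and the list median was 0.54 beside 0.01. At an unadjusted p under 0.05, h and ftz were also higher and slp1 was lower. ftz, a homeodomain gene, held 2.15, 55.6, 21.8, 30.5 and 61.5 FPKM in the middle, against 2.06, 16.9, 9.70, 17.9 and 22.7 FPKM in the ends, a difference of 0.99 ± 0.21 (limma adjusted p = 0.0642). slp1, a forkhead-domain gene whose early domain is in the head, held 0, 0.57, 8.89, 9.71 and 83.5 FPKM in the middle, against 11.1, 201, 61.7, 84.5 and 42.4 FPKM in the ends. It was lower in the middle at 14A to 14D and higher at 14E (-3.60, -7, -2.67, -3 and 0.96). prd, a paired-domain gene, was also lower at 14A and 14B and higher at 14E, but unlike slp1 it was above 0 at 14C and 14D, with -0.95 and -3.36 at 14A and 14B and 1.28, 0.62 and 3.52 afterwards. Of the 5 head gap genes tested, out of 6 listed, oc was lower, 4 were not called, beside 0.817% lower over all genes tested, and the list median was -1.39. At an unadjusted p under 0.05 croc, cnc and ems were also lower, with differences of -2.56 ± 0.66, -0.98 ± 0.27 and -1.39 ± 0.51 (limma adjusted p = 0.151, 0.176 and 0.388). btd, a zinc-finger head gene, had -1.56 and -4.49 at 14A and 14B and 0.40, 0.06 and 2.80 afterwards.

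**Figure D5:**
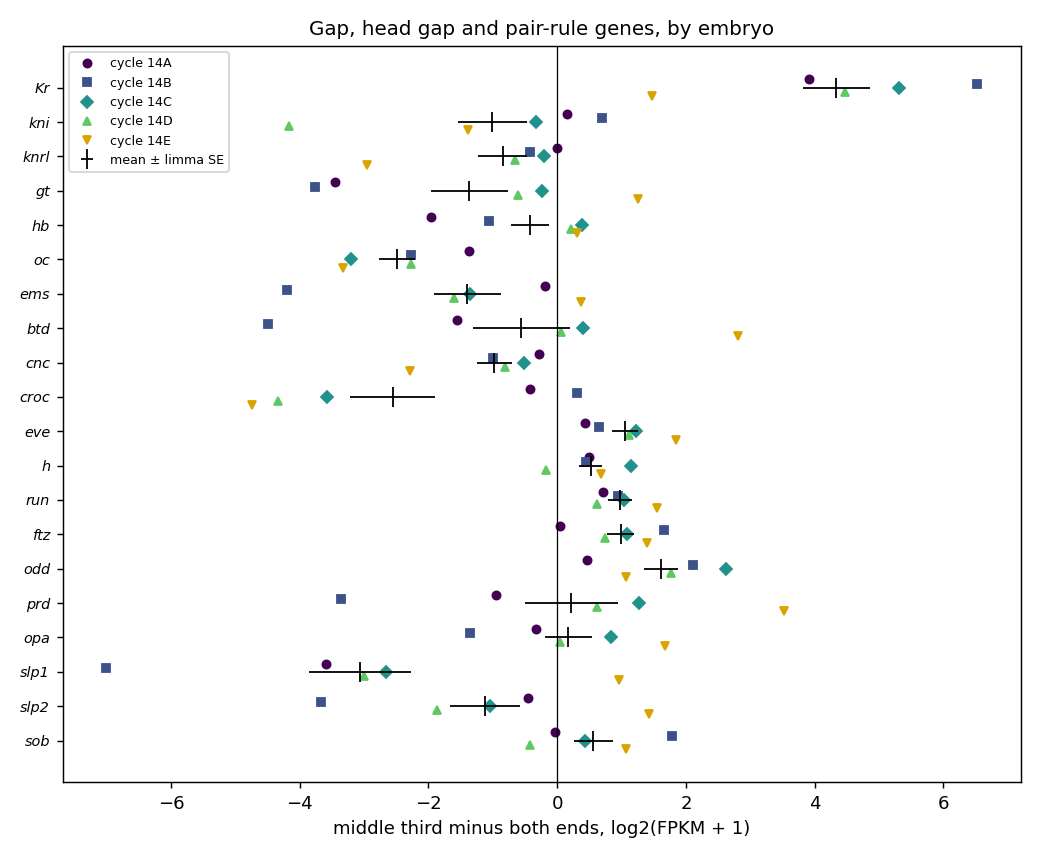
Difference of middle minus both ends in log2(FPKM + 1) (x axis) for the trunk gap, head gap and pair-rule genes tested, with a coloured mark per embryo and a black tick and bar for the mean and its limma SE (n = 5 embryos). Kr, eve, run, ftz and odd have positive differences in each embryo, while gt, prd and slp1 lie below 0 at 14A and 14B and above it at 14E.

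Across the dorsoventral lists few genes passed. Of 11 dorsal ectoderm and amnioserosa genes tested, out of 14 listed, 3 were lower and none higher, beside 0.817% lower and 0.234% higher over all genes tested, with a list median of -0.66. At an unadjusted p under 0.05 Doc2, tld, zen2, scw and tup were also lower, with differences of -1.27, -0.60, -0.66, -0.59 and -0.94 and limma adjusted p values of 0.0506, 0.0749, 0.152, 0.234 and 0.345. Doc1, a T-box gene of the dorsal ectoderm, held 0.78, 3.29, 4.57, 6.38 and 9.23 FPKM in the middle, against 1.82, 48.2, 35.2, 26.5 and 27.7 FPKM in the ends, a difference of -2.06 ± 0.33 (limma adjusted p = 0.0166) that was lost without 14C (adjusted p = 0.176). It had signal at both ends, with 66.1 FPKM in the anterior end and 30.4 in the posterior end at 14B. Doc3, its neighbour and relative, had -1.63 ± 0.31 (adjusted p = 0.0342), and egr, the fly tumour necrosis factor gene, -1.23 ± 0.21 (adjusted p = 0.023). In limma the call of egr was lost without 14C (adjusted p = 0.189) or 14D (0.0524), and Doc3 was called only without 14A (adjusted p = 0.00166), with 0.0515 to 0.259 otherwise. The BMP ligand gene dpp had -0.34 ± 0.21 (adjusted p = 0.615), and the homeobox gene zen had 0.11 ± 0.11 (adjusted p = 0.746) with 116, 292, 282, 236 and 131 FPKM in the middle, against 106, 348, 281, 219 and 88.8 FPKM in the ends.

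None of 7 neuroectoderm and midline genes tested, out of 13 listed, and none of 6 mesoderm genes, out of 10, passed in limma. At an unadjusted p under 0.05, sog was higher and ind and ac were lower on the first list, and wntD and twi were lower on the second. The homeobox gene ind and the proneural gene ac had differences of -1.36 ± 0.29 (adjusted p = 0.0605) and -0.88 ± 0.28 (adjusted p = 0.262), and wntD and twi had -1.43 ± 0.39 (adjusted p = 0.173) and -0.60 ± 0.26 (adjusted p = 0.484). The list medians were -0.17 and -0.14. The 6 gut primordium genes tested included hkb as the one that was lower, beside 0.817% of all genes tested, with a list median of -2.23. Of those not called, byn, fkh and croc were lower at an unadjusted p under 0.05 in limma.

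Genes of the later segment and trunk programmes were mostly too low to test. Of 8 Hox genes only pb passed the filter, with a difference of -0.17 ± 0.19 (limma adjusted p = 0.788), and Antp held at most 0.042 FPKM in the middle and 0.075 FPKM in either end. Of 9 segment polarity genes 4 were tested and none was called, nor was any at an unadjusted p under 0.05 in limma, with the ligand gene wg at -0.51 ± 0.24 (adjusted p = 0.52) and the Hedgehog receptor gene ptc at -0.29 ± 0.20 (adjusted p = 0.66). The Hox cofactor genes hth and exd had 0.62 ± 0.29 (adjusted p = 0.515) and 0.14 ± 0.09 (adjusted p = 0.634). The POU gene nub held 0.29, 10.3, 3.97, 0.33 and 5.48 FPKM in the middle, against 0.30, 6.52, 2.56, 0.94 and 19 FPKM in the ends. It was listed at 0 in the anterior end except for 0.11 FPKM at 14A, so the middle and the posterior end shared its signal, and its difference was -0.22 ± 0.30 (adjusted p = 0.833). Of 3 POU and Sox genes tested, out of 4 listed, D was higher and SoxN lower, beside 0.234% higher and 0.817% lower over all genes tested.

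None of the 6 Bearded family genes tested, out of 8 listed, was called in limma, and 3 were higher at an unadjusted p under 0.05, beside 190 of all 5994 genes tested; each had a positive mean difference, with a list median of 0.29. The 2 of largest difference were Ocho with 0.52 ± 0.15 (adjusted p = 0.177) and Brd with 0.45 ± 0.12 (adjusted p = 0.156). The 3 gastrulation signalling genes tested, the 2 striped Toll receptor genes tested and the 2 distal antenna genes were not called either, with mthl1 (the fog receptor gene mist, lower at an unadjusted p under 0.05, as was danr) at -0.64 ± 0.21 (adjusted p = 0.29), fog at 0.20 ± 0.21 (adjusted p = 0.772), 18w at 0.13 ± 0.21 (adjusted p = 0.86), Tollo at -0.06 ± 0.23 (adjusted p = 0.94), danr at -1.09 ± 0.24 (adjusted p = 0.0719) and dan at -0.07 ± 0.20 (adjusted p = 0.925). Of the noc and elbow pair noc was tested and lower, beside 0.817% of all genes tested.

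Of the 5 cellularization genes 2 were lower in the middle, beside 0.817% of all genes tested, and their median was -0.17. halo, whose protein controls lipid droplet transport, held 1932, 3513, 3362, 1930 and 2811 FPKM in the middle from 14A to 14E, against 2279, 4617, 4910, 2479 and 3373 FPKM in the ends. This small difference, -0.36 ± 0.06 (limma adjusted p = 0.0208), was negative in 5 of 5 embryos, and the call was lost without 14B, 14C or 14D (adjusted p between 0.0579 and 0.106). nullo, which acts at the furrow canals of the forming cells, had -0.85 ± 0.16 (adjusted p = 0.0286), with 236, 127, 128, 182 and 6.02 FPKM in the middle, against 352, 216, 216, 251 and 22.2 FPKM in the ends, and its call was lost without 14B (0.0963) or 14C (0.189). Sry-alpha, bnk and slam were not called, with differences between -0.17 and 0.18.

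The same difference was computed, with no test, in embryos that the comparison had not used. In the Canton-S embryo at cycle 13, 12 of the 14 genes were above 0 and 38 of the 49 below 0, where 29.76% and 68.45% of all genes tested were above and below 0. At cycle 11 these counts were 1 of 14 and 14 of 49, beside 49.6% and 46.03% of all genes tested. The median difference was 0 in both sets at cycle 11. For instance, tll, hkb, D, run, oc and hbn were listed at 0 FPKM in every part. Such a gene counts as neither above nor below 0. In embryos with more bicoid the counts were 13 and 38 (48.82% and 51.15% of all genes), then 12 and 45 (39.56% and 60.29%). In the bicoid-depleted embryos they were 8 and 35 (35.65% and 64.2%), then 9 and 29 (52.24% and 47.65%). In the hunchback-depleted embryos they were 12 and 42 (43.48% and 56.47%), then 9 and 35 (49.08% and 50.7%). The zelda- embryo had 6 and 44 (51.79% and 47.68%). In the Canton-S embryo at cycle 13 Kr stood at 1.94 and tll at -1.98, and in that at cycle 11 they stood at -0.37 and 0. At cycle 11 Kr was listed at 0 FPKM in the middle and the first part and at only 0.58 FPKM in the last part. In the 2 embryos with bicoid at 2.4 times the usual amount, at 14D, Kr stood at 1.35 and 2.59 and tll at -5.69 and -7.17. In the 2 bicoid-depleted embryos at 14D, Kr stood at -0.71 and 0.24 and tll at -4.74 and -4.36. There oc stood at -0.04 and -0.01, but it was nearly absent from all parts. It was listed at 0.002 and 0 FPKM in the middle and at most 0.057 FPKM in either end, and the 1 FPKM added keeps such a difference near 0. In the hunchback-depleted embryos Kr stood at 2.21 and -1.24, and in the zelda- embryo at 1.76. Kit, carrier or slice width changed with genotype, so genotype and library cannot be told apart here.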

How the data were processed

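RNA was sequenced from slices of single embryos. The authors mapped reads with STAR 2.3.0.1 and deposited FPKM made with Cufflinks 2.2.1, and the deposited transcript values of kallisto 0.42, used as an alternative, behaved as TPM (abundance scaled to the same total in each library). Library kits were unstranded for the wild-type slices. Of the 63 called genes 23 overlap another gene, and 19 overlap one on the other strand, Kr, eve, nos, pgc, oc and Hsp83 among them. The share among all genes tested is not given here.

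Slices without FPKM were not used, and ribosomal protein genes were not analysed here. Slice FPKM were averaged within each part of the embryo, both ends with equal weight, 1 FPKM was added, and log2 differences were tested with limma 3.58.1 in R 4.3.3 (eBayes with a trend, embryo as block, two-sided, Benjamini-Hochberg over 5994 genes). A fold on this scale understates changes of low genes. An exact sign-flip permutation test over 5 embryos could not go below p = 0.0625 for 1 gene. The middle and the ends were paired because they came from the same embryo: their deviations correlated at 0.405 to 0.847 within and at -0.663 to 0.177 between embryos. P values measure the spread between 5 embryos of different stages, moderated towards the variance of genes at like expression. That moderation added 6.60 prior degrees of freedom to the 4 residual ones.

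The text names the 15 largest positive and 10 largest negative called genes with 1 sign in all embryos (14 positive genes existed), members of each gene list that were called (up to 5) or else the 2 of largest difference, and Kr, nub, Antp, tll, hkb, dpp, zen, bcd and nos. Other named genes were chosen after their values were seen. The members and lists were chosen with earlier results of these data known. Positions are those of the release 6 gene annotation, in which 13463 of 13587 names were found. Alternatives were pseudocounts, filters, kallisto values, slice weighting and partition, centring, no trend, no block, carriers and each embryo left out. The scripts were tested on simulated data. Python 3.11.15, numpy 2.4.6, pandas 2.3.3 and matplotlib 3.10.9 were used.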

Additional observations from a re-analysis of the deposited data

Results flagged for a closer look

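Among 54 named genes, 1 embryo stood far from the other 4 for 3 genes by Dixon's 95% critical value, a rule under which chance flags about 1 in 20 groups. Corp had a difference of 0.019 at 14A, where the other embryos had 1.26 to 1.58. hkb had -1.565 at 14A, where the others had -6.21 to -5.23, and its ends held 1.96 FPKM at that stage. The posterior tip slice had no FPKM at 14A, and the part of this gap was not tested. nullo had -1.7233 at 14E, where the others had -0.75 to -0.46, and its level was also lowest there. Stage and embryo cannot be told apart, and the part of stage in these values was not tested.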

How the results depend on the processing

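No called difference of a named gene changed sign in those of the 20 alternatives that tested it (39 of the 54 were tested with a filter at 5 FPKM), but calls were lost widely: eve was called in 6, os and run in 5 and CG1324 in 3 alternatives. The counts of genes moved with most alternatives, and the causes were not tested. With 14 genes higher and 49 lower in the reported comparison, limma gave 8 higher with a pseudocount of 5 FPKM, 9 with all end slices weighted equally, 7 after centring each embryo on its median, 5 higher and 32 lower without the terminal slices, 4 and 26 when the middle was widened to 50% of the slice positions and each end narrowed to 25%, 1 and 16 without a trend, and 26 lower with slices averaged on the log scale. With no filter, which tests more genes, there were 0 higher and 1 lower (216 and 525 at an unadjusted p under 0.05). The widened middle left 4 embryos, since 14B had no slice with FPKM in the narrowed anterior end. The T. delbruckii embryos alone gave 29 and 128.

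Without the replicate block there were 1 higher and 6 lower, and 0 genes (3 at unadjusted p values under 0.05) were higher than each end.

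Genes higher than each end, 2 in the reported comparison, numbered 0 with a pseudocount of 0.1 FPKM, without a trend, with centring, with the widened middle, with no filter or without the terminal slices (28 to 43 at unadjusted p values under 0.05). They numbered 1 with a pseudocount of 5 FPKM, kallisto values, log-scale means, the S. cerevisiae embryos or slices 12 and 13 of 14E left out, and 4 with the T. delbruckii embryos. Genes lower than each end, 1 in the reported comparison, numbered 2 with a pseudocount of 0.1 FPKM or a filter at 5 FPKM, 4 and 3 in the S. cerevisiae and T. delbruckii embryos, and 0 with no filter (44 unadjusted) or with slices 12 and 13 of 14E left out (39 unadjusted).

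Leaving out each embryo gave 1 to 18 higher and 17 to 71 lower, with 0 to 3 higher and 1 to 4 lower than each end. Depth limits genes near 1 FPKM, which rested on few fragments per slice.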

Other observations

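The genes whose difference moved most between the 14B and 14E embryos, among 3250 genes whose middle and ends averaged at least 10 FPKM in both, were chosen after their values were seen and rest on 1 embryo each. The difference of middle minus ends was greater at 14E by 7.96 for slp1, 6.89 for prd, 6.14 for the immune-induced peptide gene IM14 and 5.01 for gt on the log2(FPKM + 1) scale. The change from 14B was -5.04 for Kr, -3.89 for pgc, -2.50 for CG1319 and -2.31 for Roc1b. The anterior end of the 14B embryo was 1 slice that did not include the tip. That of the 14E embryo also lacked the tip slice, and the part of these gaps in the values was not tested.

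In the bicoid-depleted embryos, where no test was made, nub stood at 2.18 and 1.19 and zen at 1.86 and 1.21, and in the hunchback-depleted embryos nub stood at 0.65 and 1.45 and zen at 0.52 and 1.69. In the embryos with more bicoid nub stood at -1.87 and 0.47 and zen at -0.39 and 0.20. The zelda- embryo had nub at -1.71 and zen at -1.55. All of these embryos were at 14D. In the wild-type embryos the means over 14A to 14E were -0.22 for nub and 0.11 for zen. There nub was higher in the middle than in the ends at 14B but lower at 14E.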
